A study of Mus musculus with 4 samples.

Results

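Amino acid and one-carbon catabolism was described here in AML12 cells, a mouse hepatocyte line, through 40 genes chosen by name and grouped by pathway. A row of the gene table was found for 38 of the 40 genes out of 31828 rows, and no row for Tdo2 or Kynu was found in the table used here. Of the 38 genes, 26 reached a mean of 1 TPM over the 4 libraries and were tested between the 2D and 3D cultures, and 12 lay below that level and are given as values only. TPM, in which transcripts are scaled to the same total in every library, gives a gene's share of all transcripts after allowing for transcript length.

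The liver is the main site where most amino acids are broken down. Aromatic amino acids, methionine, serine, glycine and histidine are taken apart by enzymes that are typical of differentiated hepatocytes, while the branched-chain amino acids are first transaminated largely in other tissues and their keto acids are then oxidised in mitochondria. Serine and glycine also feed the one-carbon cycle, in which folate carries single carbon units for the synthesis of nucleotides and, through methionine and S-adenosylmethionine, for methylation.

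The study compared cells of the same line grown as a layer on a dish (2D, 2 libraries) with cells embedded in Matrigel, a basement-membrane gel, where they form spheroids (3D, 2 libraries). Both cultures had a medium with fetal calf serum, insulin, transferrin, selenium and dexamethasone, a synthetic glucocorticoid, and both received 1 mM hydroxyurea, used to hold cells at the boundary of G1 and S phase, for 24 h in 2D and 36 h in 3D. By the paper's methods, hydroxyurea was added when the 2D cells partly covered the dish, and after 24 h of growth in 3D. The culture, the time in hydroxyurea and the cell density or time in culture at its addition therefore cannot be told apart. The labels number the libraries but do not say that they came from separate cultures, so the p-values measure the spread between these libraries, which may be technical. AML12 is 1 established line derived from a mouse that carried a transgene for human TGF-alpha, and in bulk RNA fewer cells of a type and less RNA per cell cannot be told apart.

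The libraries were alike in the number of genes at 1 TPM or more, which ranged from 13891 to 14256. The Pearson correlation of log2 values was 0.991 between the 2D libraries, 0.992 between the 3D libraries and 0.951 to 0.952 between cultures. The hepatocyte label was met in part. Of 18 hepatocyte markers, 17 had a row and 9 were at 1 TPM or more in every library, among them Hnf4a, a transcription factor of hepatocytes, but Apoa2, Serpina1a, Serpina1b, Fgb, Ahsg and Cps1 were under 1 TPM in every library. Of the 10 hepatocyte markers tested, 9 were higher in 3D, beside 23.4% of all tested genes. The hepatocyte markers summed to 163 and 162 TPM in 2D and to 680.5 and 664 TPM in 3D. The 5 biliary markers summed to 2401 and 2294 TPM in 2D and 2269 and 2357 TPM in 3D, with Epcam under 1 TPM, but their genes moved apart. All 4 tested passed, beside 50.5% of all tested genes. The keratins Krt19 (1728 and 1647 TPM in 2D, 1174 and 1226 TPM in 3D) and Krt7 were lower in 3D. Spp1 (166 and 138 TPM in 2D, 764 and 786 TPM in 3D) and Sox9 were higher. These 4 genes were named after their values were seen. Stellate and fibroblast markers summed to 34.9 and 37.4 TPM in 2D and to 19.8 and 18.6 TPM in 3D, nearly all of it from Des (33.7 and 36.1 TPM in 2D, 18.8 and 17.3 TPM in 3D), and Col1a1, Col3a1, Acta2 and Pdgfrb were under 1 TPM in every library. Leukocyte markers lay between 21.8 and 27.1 TPM and endothelial markers between 0.645 and 1.61 TPM. Mitochondrially encoded genes took 5.37% and 5.44% of the TPM in 2D and 6.51% and 6.78% in 3D. The part of these marker levels in the results that follow was not tested.

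Of the 38 genes, 12 were close to silent in both cultures. They were the tyrosine enzymes Tat, Hpd and Hgd, the tryptophan enzymes Kmo and Haao, both histidine enzymes Hal and Uroc1, Mat1a and Bhmt of the methionine cycle, the serine dehydratase Sds, the branched-chain aminotransferase Bcat2 and the lysine enzyme Aass. Their highest value in any library was 0.823 TPM, for Uroc1 in 2D replicate 2, and 7 of the 12 were listed at 0 in at least 1 library. Hal, histidine ammonia-lyase, was at 0.431 and 0.280 TPM in 2D and 0.304 and 0.646 TPM in 3D. Uroc1, urocanate hydratase, which follows it, was at 0.397 and 0.823 TPM in 2D and 0.535 and 0.483 TPM in 3D, so that the cultures overlapped for both. A listed 0 can be a failed estimate, since TPM values keep no read counts and the depth is unknown.

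The start regions of these genes held fewer CpG dinucleotides than those of the tested genes. A window of 300 bases around the RefSeq transcription start (250 before to 50 after, GRCm38.p6) was found for 33 of the 38 genes. The number of CpG dinucleotides in the window was counted (the letters CG, which read the same on both strands). The 10 near-silent genes with a window held 0 to 13 CpG, with a median of 7, and the 23 tested genes held 7 to 34, with a median of 18. A count of 10 or more was found in 2 of these 10 near-silent genes and in 21 of these 23 tested genes. Over all genes with a window, the share was 34.5% of 6490 genes below the filter and 81.1% of 9849 tested genes, so the direction of the split was the same over the whole table. This comparison was chosen after the values were seen and carries no test.

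The upstream sequences of 3 near-silent and 3 expressed genes are printed so that their CpG can be seen, as the 250 bases before the RefSeq start, 5′ to 3′ on the strand of the gene, with each CpG in capitals. Tat (chr8:109990186-109990435, plus strand), Hgd (chr16:37579903-37580152, plus strand) and Uroc1 (chr6:90333039-90333288, plus strand) were near-silent and held 3, 1 and 0 CpG in these 250 bases. Gldc (chr19:30175442-30175691, minus strand), the most abundant of the genes, held 8, Shmt2 (chr10:127522445-127522694, minus strand), with the largest decrease, held 7, and Mat2a (chr6:72439557-72439806, minus strand), the form of its enzyme found in growing cells, held 29. The 7 of Shmt2 was also the count of the near-silent Hpd and Bcat2, the highest of the near-silent genes, and Mat2a held the most of the 33 genes. Some tested genes that are not printed held fewer, with 2 in Mccc1, 3 in Amt and 6 in Gnmt, so the groups overlap.
Tat: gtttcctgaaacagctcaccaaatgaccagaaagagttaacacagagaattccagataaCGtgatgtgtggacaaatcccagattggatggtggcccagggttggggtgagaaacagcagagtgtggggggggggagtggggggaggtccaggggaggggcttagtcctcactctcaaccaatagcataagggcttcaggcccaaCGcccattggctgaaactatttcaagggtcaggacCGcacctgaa
Hgd: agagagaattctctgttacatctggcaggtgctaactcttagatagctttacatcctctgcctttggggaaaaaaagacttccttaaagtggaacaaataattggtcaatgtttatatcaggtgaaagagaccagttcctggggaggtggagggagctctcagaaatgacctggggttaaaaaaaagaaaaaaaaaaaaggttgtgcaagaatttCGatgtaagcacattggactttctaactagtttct
Uroc1: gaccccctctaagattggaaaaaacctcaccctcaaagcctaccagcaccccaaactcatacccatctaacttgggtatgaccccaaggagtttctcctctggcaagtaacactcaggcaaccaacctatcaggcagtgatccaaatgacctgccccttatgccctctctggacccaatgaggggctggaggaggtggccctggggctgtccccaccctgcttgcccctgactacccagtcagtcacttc
Gldc: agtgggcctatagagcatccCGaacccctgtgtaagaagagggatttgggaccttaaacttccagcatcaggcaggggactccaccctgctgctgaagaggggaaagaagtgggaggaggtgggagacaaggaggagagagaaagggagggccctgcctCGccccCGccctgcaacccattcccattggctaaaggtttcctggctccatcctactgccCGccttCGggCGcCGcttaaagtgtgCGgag
Shmt2: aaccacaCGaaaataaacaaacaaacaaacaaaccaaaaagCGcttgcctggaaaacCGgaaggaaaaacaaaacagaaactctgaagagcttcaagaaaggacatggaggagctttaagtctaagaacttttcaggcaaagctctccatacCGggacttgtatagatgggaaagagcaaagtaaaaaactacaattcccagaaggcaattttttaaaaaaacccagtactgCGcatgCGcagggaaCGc
Mat2a: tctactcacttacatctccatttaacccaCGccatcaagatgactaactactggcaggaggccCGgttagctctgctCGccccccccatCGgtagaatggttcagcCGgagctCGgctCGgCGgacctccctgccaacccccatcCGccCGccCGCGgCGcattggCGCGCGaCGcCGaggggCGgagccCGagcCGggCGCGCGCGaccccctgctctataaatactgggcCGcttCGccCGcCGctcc

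**Figure D1:**
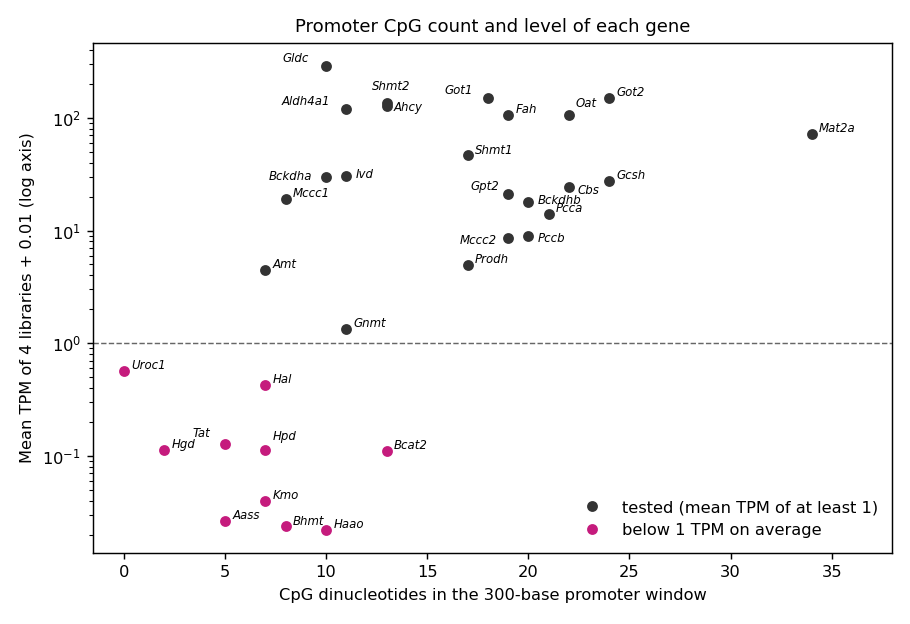
CpG dinucleotides in the 300-base window around the RefSeq start (x axis) against the mean TPM of the 4 libraries plus 0.01 (y axis, log scale) for the 33 genes with a window. The near-silent genes (magenta, 10 genes) have a median of 7 CpG and the tested genes (black, 23 genes) a median of 18; the dashed line marks 1 TPM.

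Each of the 38 genes is shown by library in the plot of levels. The tested genes spanned from Gnmt, with a mean of 1.34 TPM, to Gldc, with a mean of 289 TPM. The summed TPM of the 38 genes was 1769 and 1810 in 2D and 1415 and 1440 in 3D, so these transcripts took a smaller share of the 3D libraries.

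**Figure D2:**
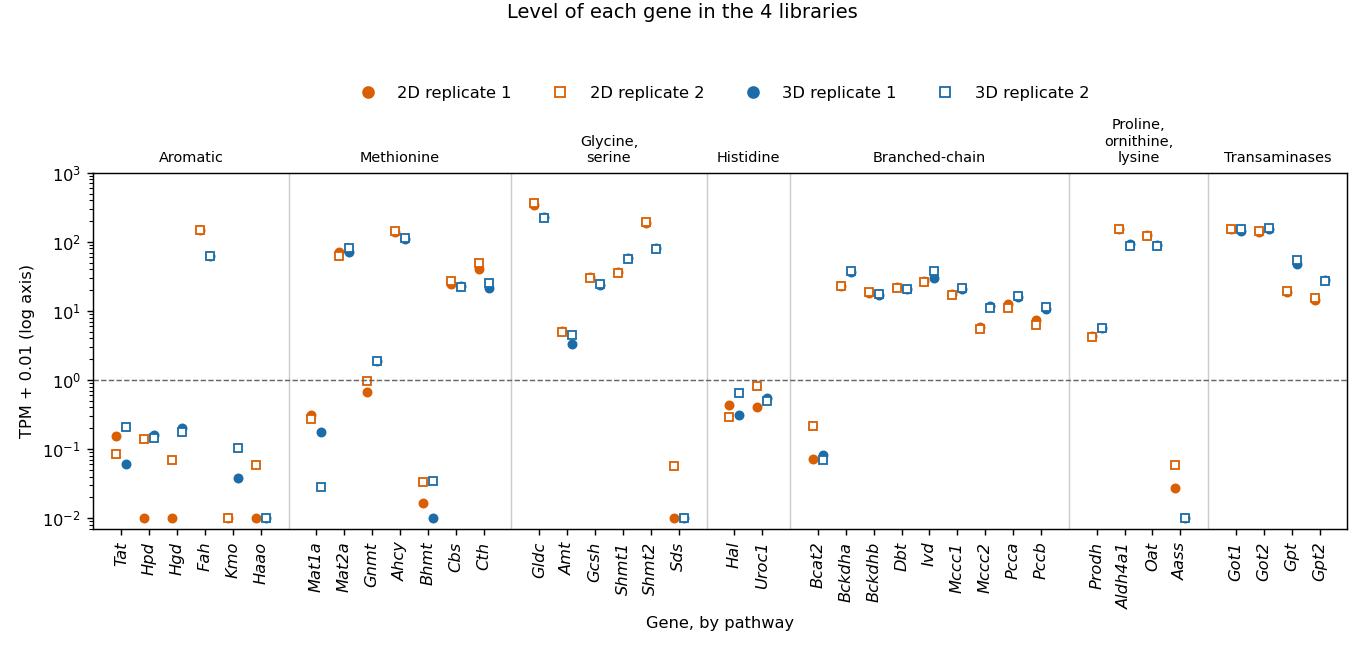
TPM plus 0.01 (y axis, log scale) of each gene with a row (x axis, by pathway) in 2D replicates 1 and 2 (orange circle and square) and 3D replicates 1 and 2 (blue circle and square). The 12 genes with every library under the dashed line at 1 TPM were not tested, and the 26 tested genes reach a mean of 289 TPM.

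Of the 26 tested genes, 19 (73.1%) passed an adjusted p of 0.05 in limma, where 50.5% of all 14116 tested genes did. Of these, 11 were higher in 3D (42.3%, with 23.4% of all tested genes) and 8 were lower (30.8%, with 27.1% of all tested genes). The 11 include Gnmt, which reached the level for testing only through the 3D libraries. Of the 26 genes, 3 (11.5%) also differed by more than 2-fold on the log2 scale of TPM + 1, Fah and Shmt2 lower and Gpt higher. This stands beside 8.2% of all tested genes (4.37% higher and 3.83% lower). Gnmt, which is not among the 3, was 2.29-fold higher in TPM itself. The libraries of the cultures did not overlap for 25 of the 26 genes, and for 77.5% of all tested genes. The median log2 fold change was 0.05, against -0.04 over all tested genes, and its sign turned to -0.05 when only genes with a mean of at least 5 TPM were kept and to -0.02 with no filter.

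Most of the abundant genes were lower in 3D. Among the 8 genes with a mean over 100 TPM, 6 were lower in 3D (Gldc, Shmt2, Ahcy, Aldh4a1, Oat and Fah), Got2 was higher and Got1 did not pass the test. Of all 1984 tested genes over that level, 38% were lower and 25.8% higher. The median level was 114 TPM for the lower genes and 19.2 TPM for the higher ones. This grouping by level was chosen after the values were seen.

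**Figure D3:**
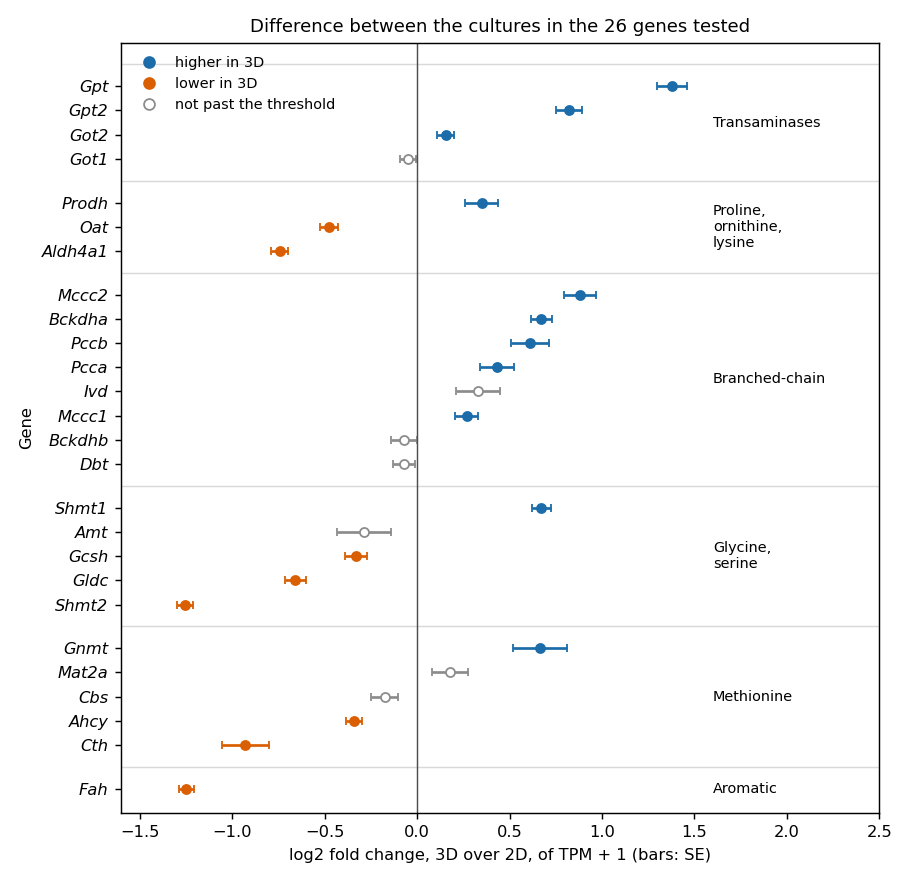
The log2 fold change of TPM + 1, 3D over 2D (x axis), of the 26 tested genes by pathway (y axis), with the SE from limma as bars. Genes that passed an adjusted p of 0.05 are blue where higher in 3D (11 genes) and orange where lower (8 genes), and open grey points did not pass; the 5 branched-chain genes that passed lie to the right of 0.

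In tyrosine breakdown, the last enzyme was abundant and fell in 3D, while the earlier enzymes Tat, Hpd and Hgd were near-silent. Fah, fumarylacetoacetate hydrolase, cleaves the last intermediate into fumarate and acetoacetate (ENSMUSG00000030630, chr7:84585159-84606722). It was at 148 and 150.3 TPM in 2D and at 62.6 and 61.8 TPM in 3D, so that both 3D libraries lay well below both 2D libraries. The level was 2.40-fold lower in 3D, with a log2 fold change of -1.25 ± 0.041 (SE, adjusted p = 2.41e-04 by limma). Tat, the aminotransferase that starts the pathway and a classical glucocorticoid-induced gene, was at 0.143 and 0.0750 TPM in 2D and 0.0511 and 0.201 TPM in 3D, which overlap. Hpd, hydroxyphenylpyruvate dioxygenase, stood at 0 and 0.128 TPM in 2D and at 0.147 and 0.133 TPM in 3D. Hgd, homogentisate dioxygenase, was listed at 0 and 0.0586 TPM in 2D and at 0.192 and 0.167 TPM in 3D. The 3D values of Hpd and Hgd lay above those in 2D but all were far under the level at which genes were tested. Kmo and Haao, of the kynurenine route of tryptophan, did not exceed 0.0923 TPM in any library. Gstz1, the isomerase between Hgd and Fah, is no gene of the set and was named after its values were seen. It was expressed, at 30.0 and 45.2 TPM in 2D and 18.7 and 31.6 TPM in 3D, which overlap, and did not pass (adjusted p = 0.183 by limma).

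In the methionine cycle, Ahcy and Cth fell in 3D and Gnmt rose from a low level. Ahcy, which hydrolyses S-adenosylhomocysteine to homocysteine, was at 140.5 and 145 TPM in 2D and 112 and 114 TPM in 3D, a log2 fold change of -0.34 ± 0.043 (adjusted p = 0.00377 by limma). Cth, cystathionine gamma-lyase, which releases cysteine, was at 40.5 and 49.1 TPM in 2D and 21.2 and 24.9 TPM in 3D. Its log2 fold change was -0.93 ± 0.13 (adjusted p = 0.00488 by limma). A predicted transcript on the same strand, Gm43314, overlaps the Cth gene and had a mean of 1.0 TPM in 2D and 0.185 TPM in 3D, and how the reads were split between them is not known from the table. Cbs, which makes cystathionine in the step before Cth, did not pass, with 24.5 and 27.1 TPM in 2D and 23.1 and 22.3 TPM in 3D (adjusted p = 0.115 by limma). The TPM of Cth was thus 1.65 and 1.82 times that of Cbs in 2D and 0.915 and 1.12 times in 3D.

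S-adenosylmethionine itself is made by the products of Mat1a in adult liver and of Mat2a in most other and in growing cells. Mat2a carried nearly all of the pair in every library. It was at 71.8 and 62.4 TPM in 2D and 71.2 and 80.9 TPM in 3D, which overlap, with a log2 fold change of 0.18 ± 0.099 (adjusted p = 0.193 by limma). Mat1a was at 0.303 and 0.265 TPM in 2D and at 0.167 and 0.0179 TPM in 3D, and made up at most 0.423% of the summed TPM of the pair. Gnmt, which uses S-adenosylmethionine to methylate glycine, was at 0.665 and 0.968 TPM in 2D and 1.88 and 1.85 TPM in 3D. Its log2 fold change was 0.66 ± 0.15 (adjusted p = 0.0196 by limma), and since it reached the level for testing only through the 3D libraries, a difference in this direction was built into its selection. It lost the call without 2D replicate 1, 3D replicate 1 or 3D replicate 2 (adjusted p = 0.0682, 0.0814 and 0.0784). Bhmt, which remethylates homocysteine with betaine, did not exceed 0.0250 TPM.

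The glycine and serine genes held the most abundant transcript of the set, Gldc, and 3 of the 5 tested were lower in 3D, beside 27.1% of all tested genes. Gldc, the decarboxylase of the mitochondrial glycine cleavage system (chr19:30098449-30175418), was at 338 and 370.1 TPM in 2D and 227 and 220.4 TPM in 3D. The log2 fold change was -0.66 ± 0.057 (adjusted p = 0.0014 by limma). Gcsh, the lipoyl-carrying H protein of the same system, was at 31.4 and 30.3 TPM in 2D and 23.9 and 24.8 TPM in 3D, a log2 fold change of -0.33 ± 0.060 (adjusted p = 0.0109 by limma, and 0.0643 without 3D replicate 1). Amt, the aminomethyltransferase, was the scarce component, with 5.12 and 4.86 TPM in 2D and 3.36 and 4.54 TPM in 3D, and did not pass (adjusted p = 0.169 by limma). The TPM of Gldc was 48.6 to 76.1 times that of Amt over the 4 libraries. Sds, serine dehydratase, was listed at 0 in 3 libraries and at 0.0465 TPM in 2D replicate 2.

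The serine hydroxymethyltransferases moved in opposite directions. Both convert serine to glycine and pass its carbon to folate, Shmt1 in the cytosol and Shmt2 in mitochondria. Shmt2 (ENSMUSG00000025403, chr10:127517123-127522444) was at 189 and 195 TPM in 2D and 80.7 and 78.8 TPM in 3D, with a mean of 192 ± 4.47 TPM (SD, n = 2) in 2D and 79.8 ± 1.33 TPM (SD, n = 2) in 3D. It was 2.41-fold lower in 3D, with a log2 fold change of -1.26 ± 0.043 (adjusted p = 2.41e-04 by limma). Shmt1 (chr11:60788104-60811718) was at 36.2 and 34.9 TPM in 2D and 57.9 and 56.5 TPM in 3D, with a log2 fold change of 0.67 ± 0.052 (adjusted p = 0.00107 by limma). The share of Shmt1 in the summed TPM of the pair was 16.1% and 15.2% in 2D and 41.8% in both 3D libraries. The sum of the pair went from 228 ± 3.56 TPM in 2D to 137 ± 2.34 TPM in 3D (SD, n = 2 each), so the rise of Shmt1 was smaller in TPM than the decrease of Shmt2. The shares are a description, since 2 libraries against 2 cannot give an exact permutation p under 0.333.

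The folate enzymes that work beside them were set next to this pair from a list of 14 genes, all of them tested. In this list 8 were lower (57.1%, beside 27.1% of all tested genes) and 0 were higher in 3D, with a median log2 fold change of -0.25. The mitochondrial Mthfd2, which oxidises the carbon unit taken from serine, was at 192 and 188 TPM in 2D and 87.9 and 87.1 TPM in 3D (log2 fold change -1.11 ± 0.040, adjusted p = 2.66e-04 by limma). Mthfd1l, which releases formate from mitochondria, was at 42.9 and 44.6 TPM in 2D and 20.2 and 18.8 TPM in 3D (log2 fold change -1.12 ± 0.065, adjusted p = 5.74e-04 by limma). The cytosolic Mthfd1 was lower by less, with 135 and 139 TPM in 2D and 109.8 and 105 TPM in 3D (log2 fold change -0.35 ± 0.046, adjusted p = 0.00424 by limma). The 3 mitochondrial genes plotted were thus lower by more than 2-fold on the log2 scale of TPM + 1. The TPM of Mthfd2 fell from a mean of 1.39 times that of Mthfd1 in 2D to 0.816 times in 3D. The plotted genes are a selection and do not describe their compartments as a whole. Ftcd, given below and not plotted, was also lower by more than 2-fold. The mitochondrial Aldh1l2 and Mthfd2l, also given below, were not (log2 fold changes -0.46 and 0.16).

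Among the remaining folate genes, Tyms, thymidylate synthase, was at 37.4 and 37.3 TPM in 2D and 28.2 and 27.7 TPM in 3D (log2 fold change -0.41, adjusted p = 0.00423 by limma). Ftcd, which passes the carbon from histidine to folate, was at 5.47 and 5.95 TPM in 2D and 1.99 and 2.41 TPM in 3D (log2 fold change -1.07, adjusted p = 0.00277 by limma). The next 3 genes are named after their values were seen. Aldh1l2 of the mitochondria and the folate carrier Slc25a32 had log2 fold changes of -0.46 and -0.28, with adjusted p by limma of 0.0282 and 0.0172. Mthfd2l, the mitochondrial relative of Mthfd2, did not pass, with 13.7 and 13.2 TPM in 2D and 16.8 and 13.6 TPM in 3D (adjusted p = 0.30 by limma). The count of lower folate genes was 5 without 2D replicate 1, without 3D replicate 1 or without 3D replicate 2, and 6 without 2D replicate 2. Without 3D replicate 2, 1 folate gene was higher, Mthfs, named after its values were seen.

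**Figure D4:**
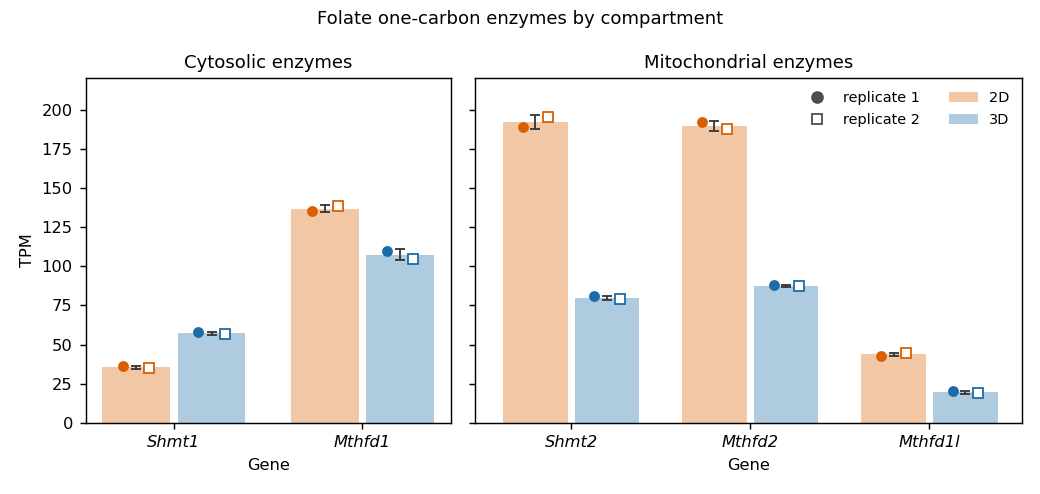
TPM (y axis, from 0) of 5 selected folate one-carbon enzymes (x axis) of the cytosol (left) and of mitochondria (right) in 2D (orange) and 3D (blue). Bars are means, error bars the SD (n = 2), circles replicate 1 and squares replicate 2; Shmt1 is the only gene of the 5 that is higher in 3D, at 57.2 against 35.6 TPM.

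Among the branched-chain genes, 5 of the 8 tested were higher in 3D and 0 were lower, beside 23.4% higher and 27.1% lower over all tested genes, with a median log2 fold change of 0.38. Bckdha and Bckdhb encode the subunits of the first component of the branched-chain keto acid dehydrogenase, and Dbt its second component. Bckdha was at 23.2 and 22.7 TPM in 2D and 36.8 and 37.6 TPM in 3D, a log2 fold change of 0.67 ± 0.056 (adjusted p = 0.00127 by limma). Bckdhb stayed between 16.9 and 18.6 TPM and Dbt between 20.5 and 21.9 TPM over the 4 libraries, and neither passed the test (adjusted p by limma = 0.44 and 0.374). The TPM of Bckdha was 1.22 to 1.3 times that of Bckdhb in 2D and 2.11 to 2.18 times in 3D.

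The carboxylases further down were higher in both of their subunits. Mccc1 and Mccc2 form methylcrotonyl-CoA carboxylase of leucine breakdown, and Pcca and Pccb form propionyl-CoA carboxylase, which serves isoleucine and valine. Mccc2 was at 5.83 and 5.55 TPM in 2D and 11.8 and 10.9 TPM in 3D (log2 fold change 0.88 ± 0.088, adjusted p = 0.00205 by limma). Mccc1 was at 17.4 and 17.2 TPM in 2D and 21.0 and 21.1 TPM in 3D (log2 fold change 0.27 ± 0.062, adjusted p = 0.0222 by limma). Mccc1 was thus 3.04 times Mccc2 on average in 2D and 1.86 times in 3D.

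Pcca was at 12.6 and 11.0 TPM in 2D and 16.0 and 16.5 TPM in 3D (log2 fold change 0.43 ± 0.091, adjusted p = 0.0173 by limma). Pccb was at 7.40 and 6.30 TPM in 2D and 10.7 and 11.2 TPM in 3D (log2 fold change 0.61 ± 0.10, adjusted p = 0.00884 by limma). Ivd, isovaleryl-CoA dehydrogenase, was at 27.3 and 26.5 TPM in 2D and 30.3 and 38.2 TPM in 3D and did not pass (adjusted p = 0.0771 by limma, and 0.0227 without 3D replicate 1, the lower of its 3D libraries). Bcat2, the mitochondrial aminotransferase, did not exceed 0.209 TPM.

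Leaving out a library ended several of these calls. The number of branched-chain genes that passed was 2 without 3D replicate 2 and 4 without any other library. Mccc1 lost the call without each library in turn (adjusted p from 0.056 to 0.106), Pcca without either 3D library (adjusted p = 0.0687 and 0.0826) and Pccb without 3D replicate 2 (adjusted p = 0.0511).

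In proline and ornithine breakdown, which meet at a common glutamate semialdehyde, the first enzyme rose slightly and those at the meeting point fell. Aldh4a1, which oxidises the common intermediate to glutamate, was at 152 and 151 TPM in 2D and 92.7 and 87.7 TPM in 3D, a log2 fold change of -0.74 ± 0.046 (adjusted p = 6.67e-04 by limma). Oat, ornithine aminotransferase, was at 127 and 121 TPM in 2D and 90.2 and 88.0 TPM in 3D, a log2 fold change of -0.47 ± 0.048 (adjusted p = 0.00215 by limma). Both had all 3D values under all 2D values. Prodh, proline dehydrogenase, was at 4.27 and 4.20 TPM in 2D and 5.67 TPM in both 3D libraries, a log2 fold change of 0.35 ± 0.090 (adjusted p = 0.0304 by limma). It lost the call without each library in turn, with adjusted p from 0.0798 to 0.12. The annotation of Fgfr2 on the same strand spans Oat and had means of 1.62 TPM in 2D and 3.3 TPM in 3D, far below Oat itself. Aass, the first enzyme of lysine breakdown, was listed at 0 in both 3D libraries and did not exceed 0.0485 TPM in 2D.

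Both alanine transaminases rose in 3D, while of the aspartate transaminases Got2 rose by far less and Got1 did not pass the test. Gpt, the cytosolic alanine transaminase (ENSMUSG00000022546, chr15:76695716-76699686), was at 18.6 and 19.5 TPM in 2D and 48.1 and 54.4 TPM in 3D. It was 2.69-fold higher, the largest rise among the 26 genes, with a log2 fold change of 1.38 ± 0.080 (adjusted p = 5.77e-04 by limma). The mitochondrial Gpt2 was at 14.5 and 15.5 TPM in 2D and 27.8 and 26.7 TPM in 3D, a log2 fold change of 0.82 ± 0.071 (adjusted p = 0.0014 by limma). The sum of the pair went from 34.0 ± 1.35 TPM in 2D to 78.5 ± 3.71 TPM in 3D (SD, n = 2 each), and the share of Gpt from 55.6% and 56.3% in 2D to 63.4% and 67.1% in 3D.

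Got1, the cytosolic aspartate transaminase, was at 154 and 151.4 TPM in 2D and 144 and 150.8 TPM in 3D and did not pass (log2 fold change -0.05 ± 0.043, adjusted p = 0.381 by limma). The mitochondrial Got2 was at 138 and 145 TPM in 2D and 155 and 159.9 TPM in 3D, a log2 fold change of 0.15 ± 0.045 (adjusted p = 0.0426 by limma). This was the smallest difference that passed, and it lost the call without 2D replicate 1, 3D replicate 1 or 3D replicate 2 (adjusted p = 0.11, 0.123 and 0.202).

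A wider list of 97 genes of the same pathways was read in the same fit. Of the 80 rows tested, 45 passed (56.2%, beside 50.5% of all tested genes), 20 higher and 25 lower in 3D, with a median log2 fold change of 0.01. The counts by pathway that follow stand beside 23.4% higher and 27.1% lower over all tested genes. Around methionine and sulfur, 10 of 20 were higher and 6 lower. Adi1, of the pathway that salvages methionine, was at 57.4 and 53.5 TPM in 2D and 113 and 114 TPM in 3D (log2 fold change 1.02), and Csad, of taurine synthesis, had a log2 fold change of 1.15. Ethe1 and Suox, which oxidise sulfur from cysteine to sulfate, fell by 1.12 and 1.09 on the log2 scale, to 40.6 and 38.7 TPM and to 26.1 and 27.2 TPM in 3D. All 4 passed the limma test, with adjusted p of 4.72e-04, 0.00243, 4.07e-04 and 4.42e-04. Sqor, Tst and Mpst of this list, which also act on sulfur from cysteine, were named after their values were seen. They were higher in 3D, with log2 fold changes of 0.67, 0.86 and 0.32 (adjusted p by limma = 0.00125, 6.64e-04 and 0.00956).

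Genes of proline synthesis were lower in 3D. Aldh18a1 and Pycr1, which make proline from glutamate, had log2 fold changes of -0.74 and -0.90 (adjusted p by limma = 7.18e-04 and 0.00137), and 4 of the 6 genes tested in that part of the list were lower and 0 higher. Of 16 other branched-chain genes, 4 were higher and 2 lower. Aldh6a1, of valine breakdown, rose from 26.2 and 25.8 TPM to 50.6 and 51.2 TPM (log2 fold change 0.94, adjusted p = 5.12e-04 by limma), and Hsd17b10, of isoleucine breakdown, had a log2 fold change of 0.48 (adjusted p = 0.00694 by limma). Acad8, of valine breakdown, had one of -0.66 (adjusted p = 0.0171 by limma), which lost the call without either 2D library (adjusted p = 0.0912 and 0.0696).

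Around serine and glycine, 3 of the 11 rows tested were higher and 4 lower. The higher rows include a minor row of Gcat, with means of 5.09 TPM in 2D and 12.05 TPM in 3D (adjusted p = 0.0269 by limma). The more abundant row of Gcat, with means of 27.96 TPM in 2D and 31.29 TPM in 3D, did not pass (adjusted p = 0.112 by limma). Phgdh and Psat1 begin serine synthesis. Phgdh was at 368 and 356 TPM in 2D and 403 and 421 TPM in 3D (log2 fold change 0.19, adjusted p = 0.0205 by limma), and Psat1 at 167 and 160.4 TPM in 2D and 142 and 140.5 TPM in 3D (log2 fold change -0.21, adjusted p = 0.0145 by limma). Dld, the dehydrogenase that the glycine cleavage system shares with the branched-chain complex, had a log2 fold change of -0.21 (adjusted p = 0.0205 by limma). Phgdh and Dld lost the call without 2D replicate 2 (adjusted p = 0.0592 and 0.0561), without 3D replicate 1 (0.0672 and 0.103) or without 3D replicate 2 (0.136 and 0.089), and Psat1 without either 3D library (0.0757 and 0.0905). The counts of higher and lower rows in this list were 1 and 0 without 3D replicate 1, 2 and 0 without 3D replicate 2, 2 and 1 without 2D replicate 2 and 3 and 2 without 2D replicate 1. Glud1, glutamate dehydrogenase, stayed between 176 and 184 TPM and did not pass (adjusted p = 0.447 by limma). Of the aromatic list, 3 of 11 were higher and 1 lower: Ddc, which makes amines from aromatic amino acids, rose from 1.23 and 1.13 TPM to 9.65 and 8.77 TPM (log2 fold change 2.23, adjusted p = 4.36e-04 by limma), and Afmid, of the kynurenine route, had a log2 fold change of -0.54 (adjusted p = 0.00454 by limma).

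Shmt2, Cth and Gpt2 are known targets of ATF4, the transcription factor of the amino acid response, so 17 genes of that response were listed. All were tested, and 12 passed (70.6%, beside 50.5% of all tested genes), 8 lower and 4 higher in 3D, and the median log2 fold change was -0.13. Asns, asparagine synthetase, was at 214 and 209 TPM in 2D and 104 and 108 TPM in 3D (log2 fold change -0.99, adjusted p = 3.35e-04 by limma). Eif4ebp1, an inhibitor of translation initiation, had a log2 fold change of -0.72 (adjusted p = 4.65e-04 by limma). Ddit3 was at 868 and 818 TPM in 2D and 717 and 740.3 TPM in 3D (log2 fold change -0.21, adjusted p = 0.0167 by limma). Cebpb had a log2 fold change of 0.23 (adjusted p = 0.0236 by limma). Slc3a2 and Atf5, also among the most abundant of the list, did not pass (adjusted p = 0.0746 and 0.055 by limma). Their means were 770 and 472 TPM in 2D and 832 and 511 TPM in 3D. The balance of the list was 7 lower and 6 higher when libraries were rescaled without mitochondrial and the top 20 genes, and 6 lower and 5 higher without 2D replicate 1. The list gave 7 calls without either 3D library, Ddit3 lost its call there (adjusted p = 0.112 and 0.0721), and Cebpb lost it without 2D replicate 2 or 3D replicate 2 (adjusted p = 0.087 and 0.12).

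Tat and Tdo2 are induced by glucocorticoids, and both media held dexamethasone. Of 12 glucocorticoid-responsive genes, 10 were tested, 6 passed (60.0%, beside 50.5% of all tested genes), 5 higher and 1 lower in 3D, and the median log2 fold change was 0.22. Sgk1, a kinase induced early by the hormone, was at 80.1 and 83.3 TPM in 2D and 199 and 202 TPM in 3D (log2 fold change 1.28, adjusted p = 2.41e-04 by limma). Dusp1, a phosphatase, was at 199 TPM in both 2D libraries and at 157 and 158 TPM in 3D (log2 fold change -0.34, adjusted p = 0.00252 by limma). Tat did not exceed 0.201 TPM in any library.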

How the data were processed

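Polyadenylated RNA of AML12 cells was sequenced by the authors after a stranded library preparation, with 2 libraries per culture. Cutadapt 1.8.3 and Trimmomatic 0.36 served for trimming, HISAT2 2.0.5 for mapping to GRCm38, and StringTie 1.3.4 for quantification against the Ensembl annotation (release 93). The deposited table holds the TPM of each gene in each library, with no pooling of replicates. It also holds 2 columns of the authors' own comparison by DESeq2, a deposited log2 fold change and a deposited p-value per gene, which were not used. TPM values are relative within a library and keep no depth, so a rise of some genes lowers others, and no interval that needs read counts was computed.

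Genes with a mean of at least 1 TPM were compared between cultures on the log2(TPM + 1) scale by limma 3.58.1 under R 4.3.3. The linear model had the single factor culture, variances were moderated by robust eBayes along the mean trend, and p-values were two-sided with Benjamini-Hochberg adjustment over 14116 genes. Fold changes on this scale understate the change of low genes. The read-count model of the study was not used, because TPM are not counts. Libraries were grouped by their labels. Libraries with the same replicate number did not deviate together (correlation -0.0549), so the numbers were not treated as pairs.

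The genes and the lists were chosen with earlier results of these data known. All 40 genes could be named. Of each part of the wider list, up to 3 genes with the highest mean TPM and up to 3 with the largest log2 fold change among those that passed could be named, and of the ATF4, glucocorticoid and hepatocyte lists up to 4 and up to 2. Other genes named were chosen after their values were seen, as were the ratios of TPM between genes. Results were recomputed with a pseudocount of 0.1 or 5, without the filter or with one of 5 TPM, centring, quantile normalization, totals rescaled after removal of the top 20 and all mitochondrial genes, a constant prior variance, a replicate block, and without each library. For some of the named genes outside the set, they were added after the data were seen. 1 listed gene is counted in its list but not reported here. Sequences are from RefSeq (GRCm38.p6). A window was matched by symbol, chromosome and strand, and the window nearest to the 5′ end of the gene was taken. It lay 780 bases from that end for Fah, 453 for Shmt1, 1013 for Prodh and 11812 for Kmo. Figures were drawn with matplotlib 3.10.9 in Python 3.11.15.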

Additional observations from a re-analysis of the deposited data

How the results depend on the processing

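Of 335 values of the log2 fold changes of the tested genes under the alternatives, 309 kept their direction and their side of the threshold, 25 kept the direction and lost the call, 1 gained it and 0 reversed. The genes that passed numbered 16 to 19 under the settings that kept all libraries and 13 to 17 when a library was left out, beside 19. The genes past a 2-fold change numbered 3 to 4 under every alternative. Over all genes, 7122 calls became 5977 to 7147 with all libraries kept and 4720 to 5954 when a library was left out, with 4720 without 3D replicate 1. Fewer libraries leave fewer degrees of freedom, and a culture left with 1 library is assumed to vary like the other. The calls in the wider list of pathway genes ranged from 32 to 38 when a library was left out, those of the ATF4 list from 7 to 11 and those of the glucocorticoid list from 4 to 8. The share of Shmt1 in its pair differed between cultures by 25.7 to 26.6 percentage points when a library was left out, that of Gpt by 7.45 to 11.1, that of Got1 by -4.34 to -2.78 and that of Mat1a by -0.40 to -0.19.

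With the replicate number as a block, 6248 genes passed, 6061 of them in both fits, and 16 of the genes described here passed. Mccc1, Prodh and Got2 lost the call under the replicate block (adjusted p = 0.0579, 0.0687 and 0.076), with no filter (0.0531, 0.0666 and 0.0934) and, for Got2, with a constant prior variance (0.105). The numbers did not pair the libraries, so this is not read as a weaker effect. The median log2 fold change of the tested genes reversed to -0.050 with a filter of 5 TPM and to -0.018 with no filter, where 23 and 38 of the genes entered. For the named genes outside the set that were recomputed, 371 of 401 values kept their side of the threshold and 29 lost the call. The call was gained by 1 (Gstz1 under the replicate block, adjusted p = 0.00761 by limma), and 0 reversed. No scaling moved the median of all genes by over 0.1 on the log2 scale. TPM keep no depth, so the near-silent genes could not be given a detection limit.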
